A study of Cristatella mucedo with 12 samples.

Results

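The first megabase of contig 32 in the Cristatella mucedo assembly holds a stretch of short gene models that were nearly silent at the edge of the colony. All models on this contig that end at or before base 1000000 were taken, which gave 86 of the 35949 models in the table. The window was chosen by measured values: earlier results of the same libraries had shown that some of its models were lost at the colony edge against the centre. The edge and centre values are therefore given as a description with no test, and tests were kept to other contrasts. The edge and central libraries still enter the estimate of spread behind the test of ends against middle.

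Polyadenylated RNA was counted in 12 bulk libraries of wild-type animals, all labelled isolate SBPEP1. Mature colonies, taken from a freshwater stream and kept in an aquarium, gave 8 libraries. These were the central zone (replicates 1 and 2) and the edge zone (replicates 2 and 3) of one kind of dissection, and the end part (replicates 1 and 3) and the middle part (replicates 2 and 3) of elongated colonies. Statoblasts gave 4 libraries, 1 each from the freezer and from day 2, day 4 and day 6 of differentiation, so no stage has a replicate. Each colony zone is a piece of a whole colony with all its tissues. In such bulk samples fewer cells of a type and less RNA per cell cannot be told apart.

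Cristatella mucedo is a freshwater bryozoan, a colonial filter feeder whose gelatinous colony creeps on a flat sole. In this genus young zooids bud near the margin of the colony, and older zooids lie further in. Statoblasts are capsules of dormant cells that form inside mature zooids and later found new colonies. Neighbouring genes of similar length are often products of tandem duplication in animals, and near-identical copies share sequencing reads. The table pairs identifiers with names for mitochondrial models only, so the zones and stages could not be checked against marker genes, and the contig 32 models are given by their first and last base on the contig. What their products do is not known from the files, and no assembly name is given in the sources used here. No sequence of these models is printed, because only the count table was used.

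Mature libraries held between 14787598 and 26089274 counts, and statoblast libraries held fewer, between 4738221 and 7805888. Levels are given as CPM, the count of a model scaled to its share of the library total and multiplied by 1000000. A floor of 3 counts was worth 0.115 to 0.203 CPM in a mature library and 0.384 to 0.633 CPM in a statoblast one. The central libraries stood apart from each other for the models of this stretch, as the values below show, so the 2 central values are given singly for each model described. Where values are given for a pair of libraries, the lower replicate number comes first.

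A model was called edge-silent when its mean was under 0.5 CPM for the edge pair and at least 5 CPM for the central pair. This held for 15 of the 86 models (17.4%), against 76 of all 35949 models (0.211%). These limits use the contrast that chose the window, so nothing is read from that difference. On the rest of contig 32, 2 of 201 models met the same limits, and the 76 models lay on 28 contigs, with 9 on the next fullest, contig 8. The model at bases 377790 to 378469 was just inside the edge limit, with 0.681 and 0.300 CPM in edge zone replicates 2 and 3. Just outside it was g3087 (bases 594351 to 594948), with 0.233 and 0.833 CPM there. At the far end of the window, the last model inside (bases 999210 to 999964) and the first outside (bases 1000123 to 1000639) reached at most 0.211 and 0.115 CPM in any library.

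**Figure D1:**
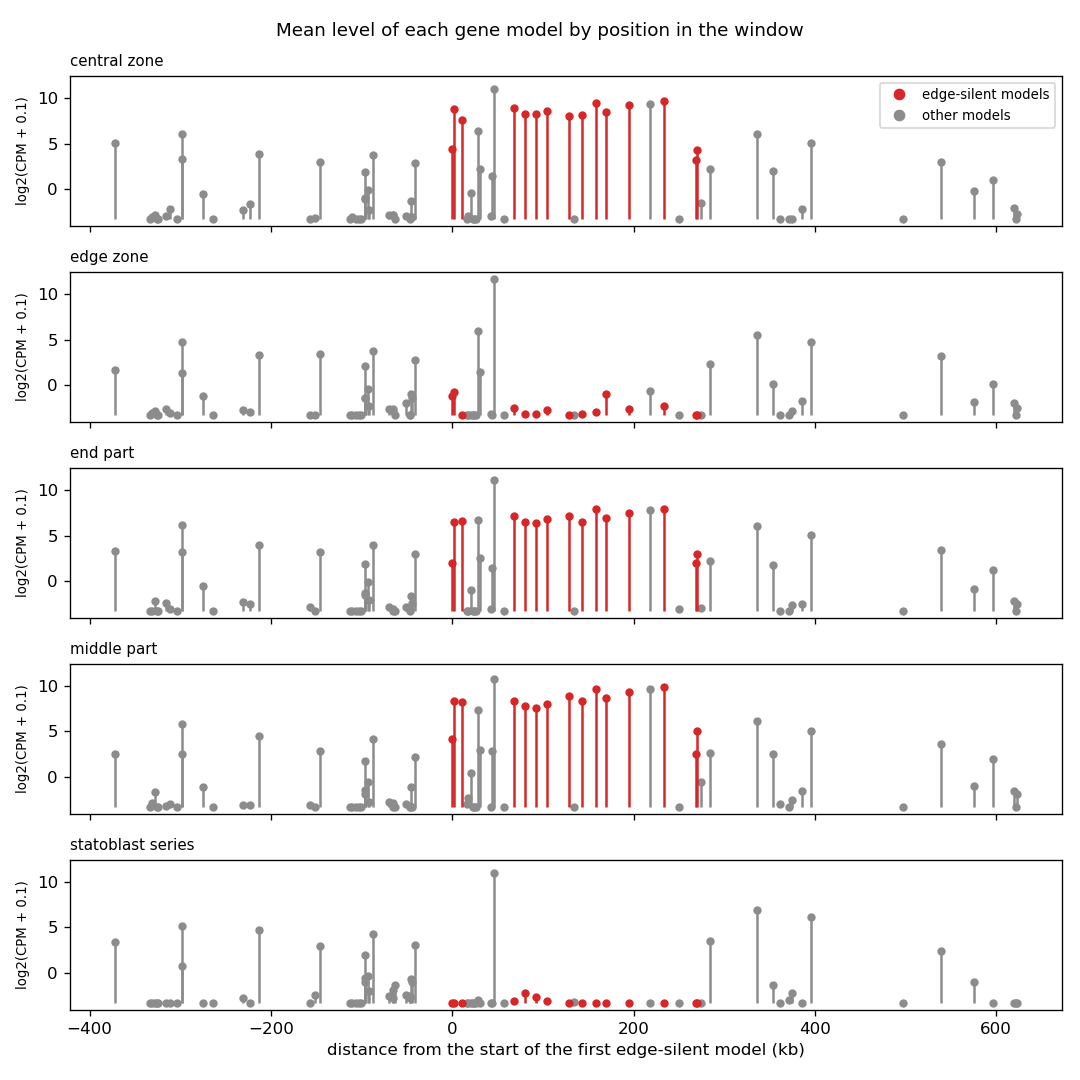
Mean level of the 86 models, as log2(CPM + 0.1), against distance in kb from the start of the first edge-silent model, with 1 panel for each colony zone and 1 for the statoblast series (means of 2 and of 4 libraries). The red stems of the 15 edge-silent models stand high in the central, end and middle panels and near the bottom of the edge and statoblast panels, while 1 grey stem among them keeps its height in all 5.

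The 15 edge-silent models lay between bases 376386 and 648715, a stretch of 272330 bases that held 30 models. They were short. Their span on the contig, from first to last base with any introns, had a median of 637.0 bases and ran from 388 to 2675, and 13 of the 15 were under 1000 bases. Over all models the median span was 3257.0 bases, with 27.6% under 1000 bases. In the other 71 models of the window it was 1616.0 bases, with 27 under 1000. Among the 61 edge-silent models elsewhere in the table the median was 3142.0 bases, with 13 under 1000. Short span was thus shared by most of the window's edge-silent models and by fewer of those elsewhere, a difference that was not tested.

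From base 444147 onward lay 12 edge-silent models, with g3087 and 2 models under 1 CPM in every library among them. Between the 12, 10 steps from one start to the next, leaving out the final step between 2 overlapping models, ran from 11377 to 38512 bases with a median of 14856.0. The first 3 models of the stretch lay apart, with 56293 bases between the third and the fourth. The models at bases 444147 to 444738, 456590 to 457181 and 480850 to 481441 each spanned exactly 592 bases, which 17 models in the whole table did. Spans of 590 to 600 bases were found in 5 of the 15, against 0.378% of all models.

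Non-whole counts, which counting gives when it divides a read between several places, were common here. They occurred, at a distance of over 0.004 from a whole number, in at least 1 mature library for all 15, although only 2 of them overlap another model. In the central, end and middle libraries 14 of the 15 had a non-whole count in all 6. Of the 11852 models with at least 50 counts in each of these libraries, a limit that 13 of the 15 met, 22.6% did. The comparison was not matched for the number of counts. At day 6 the 3 models of 592 bases each held exactly 0.58 counts, and the model at bases 469138 to 469525 held 0.25. Which models the divided reads matched is not recorded, so levels of single models are uncertain, and sums over them are given first.

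Summed over the 15 models, the level was 1.51 and 1.71 CPM in edge zone replicates 2 and 3. It was 1059.6 and 9266 CPM in central zone replicates 1 and 2, 1311 and 1981 CPM in end part replicates 1 and 3, and 4310 and 6237 CPM in middle part replicates 2 and 3. The edge libraries lay far below all 6 others. As a share of all counts of a library, the 15 models took 0.927% in central zone replicate 2 and 0.000151% in edge zone replicate 2. Both edge libraries together held 81.6 counts over the 15 models, and 4 models had no count there at all. In every one of the 15 the higher edge value was below the lowest of the 6 other mature libraries. The narrowest gap was 5.71-fold, at bases 376386 to 377783.

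**Figure D2:**
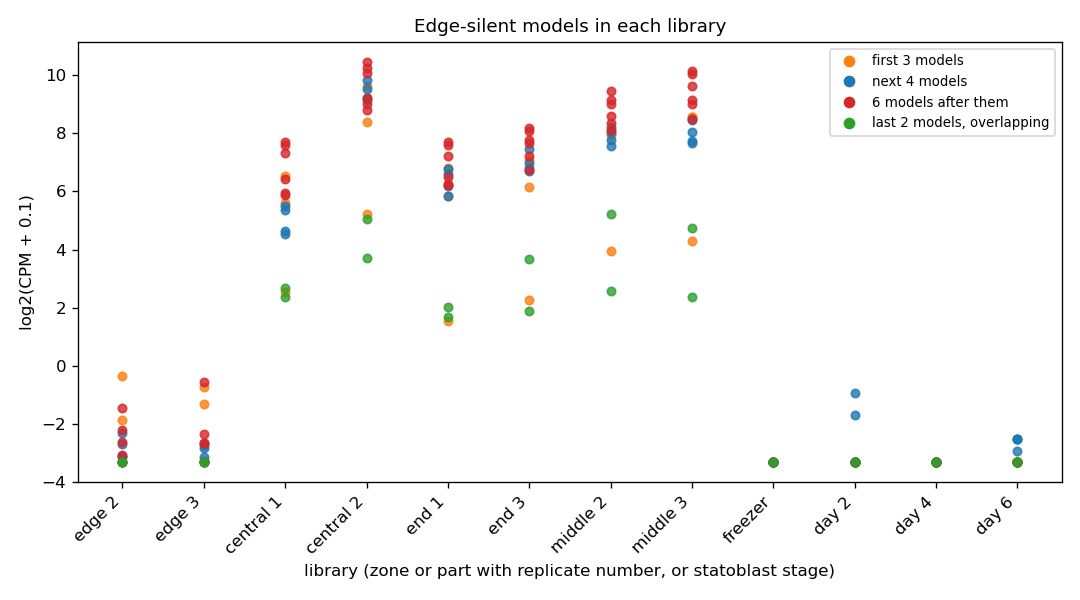
Level of each of the 15 edge-silent models, as log2(CPM + 0.1), in each of the 12 libraries, coloured by place in the stretch. All points of the edge and statoblast libraries lie below all points of the central, end and middle libraries, and central zone replicate 2 stands above replicate 1 for every model.

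The first 3 models of the stretch differed among themselves in level. At bases 377790 to 378469 there were 91.9 and 800.2 CPM in central zone replicates 1 and 2, 113 and 71.7 CPM in end part replicates 1 and 3, and 252 and 377 CPM in middle part replicates 2 and 3. The model 6 bases before it, at 376386 to 377783, followed at a far lower level, with 5.68 and 37.6 CPM for the central pair, 2.85 and 4.69 CPM for the end pair and 15.4 and 19.8 CPM for the middle pair. At bases 387149 to 387853 there were 49.0 and 336 CPM for the central pair, 56.8 and 136 CPM for the end pair and 247 and 374 CPM for the middle pair, with no count in either edge library. In all 3 models central zone replicate 2 was far above replicate 1, and both middle libraries were above both end libraries.

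The next 4 models, from base 444147 to base 481441, hold the 3 of equal span. The model at bases 444147 to 444738 stood at 45.1 and 909.8 CPM in central zone replicates 1 and 2, at 0.102 and 0.0420 CPM in edge zone replicates 2 and 3, at 110.0 and 177 CPM for the end pair and at 299 and 352 CPM for the middle pair. The model at bases 456590 to 457181 stood at 23.0 and 598 CPM for the central pair, 73.5 and 111 CPM for the end pair and 221 and 214 CPM for the middle pair. Its edge pair had 0.0144 and 0.0140 CPM.

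At bases 469138 to 469525 the block had 24.6 and 571 CPM for the central pair, 0.0163 and 0.0040 CPM for the edge pair, 57.1 and 104 CPM for the end pair and 190.3 and 202 CPM for the middle pair. At bases 480850 to 481441 it had 41.1 and 739.8 CPM for the central pair, 0.0556 and 0.050 CPM for the edge pair, 96.9 and 125 CPM for the end pair and 266 and 262 CPM for the middle pair. In all 4 the order of libraries outside the edge began with central zone replicate 1 and ended with replicate 2. Summed, these 4 reached 134 and 2818 CPM for the central pair, 0.188 and 0.110 CPM for the edge pair, 337 and 517 CPM for the end pair and 976 and 1030.1 CPM for the middle pair. Here central zone replicate 1 was the lowest of the 6 libraries outside the edge, below both end libraries. These 4 were set off from the others by the gap between the central libraries. The ratio of replicate 2 to replicate 1 was 18.0 to 25.9 in these 4 and 2.57 to 8.89 in the other 11, a split made after the values were seen.

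After this block came 6 edge-silent models and g3087. The highest by its mean over the elongated colonies was g3088 (bases 609896 to 610615). It had 191 and 1389 CPM for the central pair, 0.119 and 0.0987 CPM for the edge pair, 196 and 287 CPM for the end pair and 696 and 1124 CPM for the middle pair. The model at bases 534492 to 535128 had 208 and 1209 CPM for the central pair, 0 and 0.0600 CPM for the edge pair, 208 and 272 CPM for the end pair and 569 and 1053 CPM for the middle pair. In both, central zone replicate 1 and end part replicate 1 lay near each other at the low end, and central zone replicate 2 was highest.

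The neighbour of g3088, g3087, had 162 and 1179 CPM for the central pair, 208 and 255 CPM for the end pair and 709.5 and 949.9 CPM for the middle pair. The model at bases 571384 to 571978 had 162 and 1072 CPM for the central pair, 0.0611 and 0.0588 CPM for the edge pair, 148 and 217 CPM for the end pair and 520.0 and 785 CPM for the middle pair. The one at bases 545869 to 546462 had 86.4 and 596 CPM for the central pair, 0.267 and 0.582 CPM for the edge pair, 90.5 and 149 CPM for the end pair and 326 and 513 CPM for the middle pair. These 3 again had their highest level in central zone replicate 2.

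The first 2 models after the block differed in that order. At bases 504780 to 505487 there were 62.2 and 444 CPM for the central pair, no count at the edge, 74.0 and 201 CPM for the end pair and 391 and 568 CPM for the middle pair, so that middle part replicate 3 was the highest library. At bases 518953 to 519948 there were 58.2 and 518 CPM for the central pair, 0.0195 and 0 CPM for the edge pair, 77.2 and 108 CPM for the end pair and 274 and 361 CPM for the middle pair. Here central zone replicate 2 was highest.

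The stretch ended in 2 weak models that overlap each other and cannot be told apart with certainty. The one at bases 645695 to 646142 had 5.11 and 13.2 CPM for the central pair, 3.96 and 3.63 CPM for the end pair and 5.91 and 5.10 CPM for the middle pair. The one at bases 646041 to 648715 had 6.28 and 33.3 CPM for the central pair, 3.14 and 12.8 CPM for the end pair and 37.2 and 27.0 CPM for the middle pair. Neither had a count at the edge.

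Per kb of span, levels in the middle part (means of 2 libraries) ran over a wide range, from 12.0 to 1273 CPM per kb with a median of 463 CPM per kb. The 4 models with the large central gap lay close together, between 367 and 550 CPM per kb. The first model of the stretch, at 12.6 CPM per kb, and the last 2, at 12.3 and 12.0, were the lowest. The stretch was thus weak at both of its ends.

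The central libraries differed by more for these models than for most. The sum over the 15 was 8.74 times higher in replicate 2 than in replicate 1. Of the 11852 models with at least 50 counts in each central, end and middle library, 38 (0.321%) had a ratio of 5 or more, and 12 of the 38 were among the 15. The median ratio over the 11852 was 0.831. Among the 61 edge-silent models elsewhere the median ratio was 5.46, against 7.13 for the 15. Central zone replicate 2 was the highest mature library for 12 of the 15, and central zone replicate 1 the lowest outside the edge for 10. The labels do not say how the central dissections differed, and the part of that difference in the values was not tested.

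**Figure D3:**
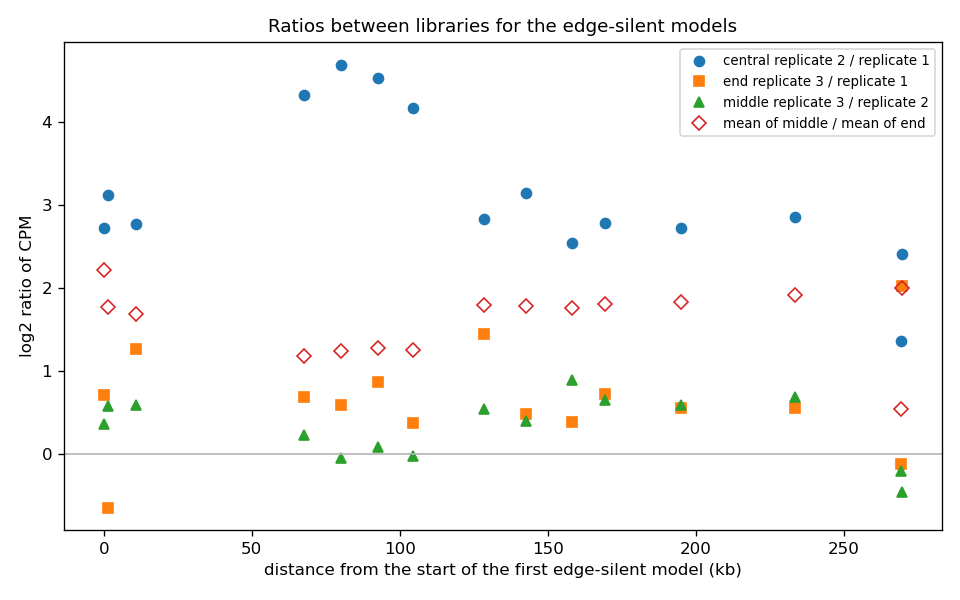
Ratios of CPM on a log2 scale for the 15 edge-silent models against distance in kb from the start of the first, between the 2 central, the 2 end and the 2 middle libraries and between the means of the middle and end parts. The central ratio is 18.0 to 25.9 in a block of 4 neighbours and at most 8.89 elsewhere, while the middle-to-end ratio stays between 1.45 and 4.66.

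The 15 models followed similar profiles across the 6 libraries of the centre, ends and middle. Pearson's r of log2 CPM had a median of 0.915 over the 105 pairs of models and a lowest value of 0.492, and within the block of 4 it was at least 0.994. These values describe 6 libraries that all models share, and the part of divided reads in them was not tested. The 2 central libraries, which also served to pick the 15, are among these 6, and r for other pairs of models was not computed. The block was picked by the gap between the central libraries, which are among these 6, so nothing is read from its r. By group mean, which for the centre averages 2 unlike libraries, the order from low to high was edge, end, centre, middle in 8 models and edge, end, middle, centre in 7. Centre and middle are not separated, given the gap between the central libraries.

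The ends of elongated colonies were compared with their middle. These 4 libraries are not those of the edge and centre contrast that chose the window. All 15 edge-silent models were lower at the ends, with no overlap between the end and middle libraries. Over all 18085 models tested, 18.7% had both middle libraries above both end libraries, and 26.3% the reverse. The sum over the 15 was 1646 ± 473 CPM for the end pair and 5274 ± 1363 CPM for the middle pair (SD, n = 2 each). The ratio of middle to end ran from 1.45 at bases 645695 to 646142 to 4.66 at bases 376386 to 377783, with a median of 3.42.

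None of these differences passed the test. With edgeR's quasi-likelihood test over the 8 mature libraries, 0 of the 39 window models tested were higher or lower at an adjusted p under 0.05, against 0.326% higher and 0.0166% lower of all models. At an unadjusted p under 0.05 there were 15 lower and 0 higher, 10 of the 15 among the edge-silent models, against 12.9% of all models in either direction. The DESeq2 Wald test also called 0, with 3 at an unadjusted p under 0.05. On the log2 scale the 15 had a median change of -1.81, against 0.01 for all models tested. For g3088 the end-to-middle value was -1.94 on that scale (SE 0.63, edgeR adjusted p = 0.236), and for g3087 it was -1.88 (SE 0.65, edgeR adjusted p = 0.262). At bases 444147 to 444738 it was -1.22 (SE 0.81, edgeR adjusted p = 0.545).

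This count moved with the filter and with the libraries in the fit. With no filter on low counts 17 of 65 window models were lower at the ends, against 207 of all 28161. Fitting the 4 libraries of elongated colonies alone gave 6 lower of 37, against 11 of all 17381. The median log2 fold change of the 15 edge-silent models was -1.81 without central zone replicate 1 and -1.80 without replicate 2. In both of these fits, which leave 1 central library in the shared estimate of spread, more window models were called lower than in the reported test. That median was -1.36 without end part replicate 1 and -2.08 without end part replicate 3. It was -1.94 without middle part replicate 2 and -1.55 without middle part replicate 3. With the replicate numbers as a block, none was called, the median log2 fold change of the 15 became -0.79, and 5 of the 15 turned to positive values between 0.012 and 0.46.

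In the statoblast series the stretch was almost empty at every stage. Summed over the 15 models there were 0 counts in the freezer library, 3 at day 2, 0 at day 4 and 1.99 at day 6. In CPM, with exact Poisson 95% intervals on the rounded count, these sums were 0 (0 to 0.658), 0.633 (0.131 to 1.85), 0 (0 to 0.679) and 0.255 (0.0310 to 0.926). Such intervals, and the floors, take in counting error and nothing else. The counts that were present all fell in the 4 models between bases 444147 and 481441, and the other 11 had none in any stage. Of the 14 edge-silent models with at least 5 CPM over elongated colonies, 10 had no count in any statoblast library, against 4.32% of the 11091 models at that level. Without that limit on level it was 11 of the 15, against 19 of the 61 edge-silent models elsewhere. These differences were not tested.

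Against the 4 libraries of elongated colonies, 26 of 34 window models tested were lower and 1 was higher in statoblasts (adjusted p under 0.05 by edgeR), against 47.5% lower and 29.1% higher of all 16009 models. All 15 edge-silent models were among the 26, but they passed the filter on low counts through the colony libraries alone, so their number supports nothing. The same holds for g3087 and the models at bases 404920 to 407631, 407535 to 418656, 420290 to 421296 and 972396 to 976642. Each of these had at most 1 statoblast count. It also holds for the model at bases 730212 to 737412, with 6.5. Nothing is thus read from 26 of 34 against 47.5%. The other 52 window models were not tested. The largest fitted falls were those of g3088 and g3087, which had no count in any stage. Both entered the fit through the colony libraries alone, and the size of such a fall follows their colony level. Their means over elongated colonies were 576 ± 425 and 530.4 ± 359.7 CPM (SD, n = 4). Against 3 counts in the smallest statoblast library this is at least 909-fold lower for g3088 and 838-fold for g3087, or 309.6-fold and 328-fold by the lowest elongated library. Over the 11 edge-silent models with no statoblast count the bounds by the mean ran from 7.34-fold to 909-fold. At bases 456590 to 457181, with 3 rounded counts, elongated colonies were 1266 times higher, with a 95% counting interval of 433 to 6138.

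**Figure D4:**
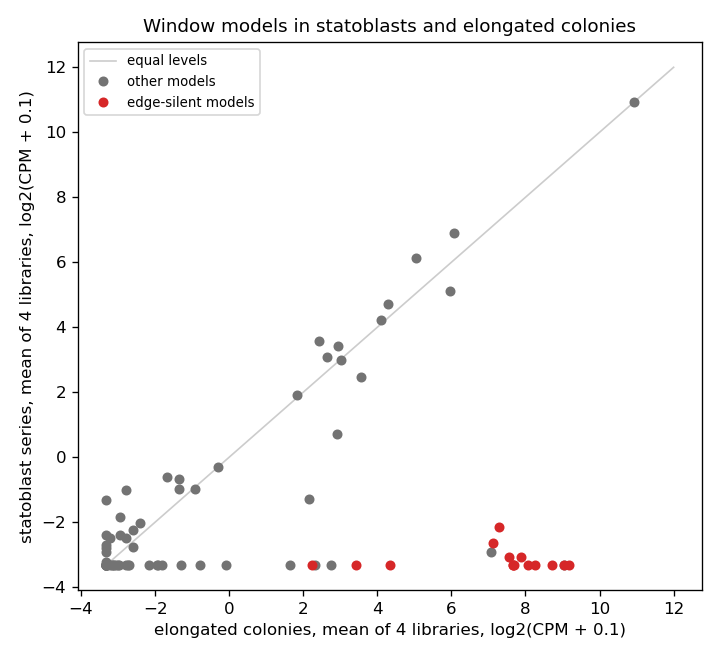
Mean of the 4 statoblast libraries against mean of the 4 libraries of elongated colonies for the 86 models, both as log2(CPM + 0.1), with a line of equal levels. The 15 edge-silent models, in red, lie along the bottom at up to 576 CPM in elongated colonies, while the other models, in grey, spread from the bottom to above the line.

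Not every model within the stretch was silent at the edge. Of its other 15 models, 9 stayed under 1 CPM in every library. The model at bases 422161 to 432910, with edge-silent models on both sides but not next to it, was the most abundant of the window and was present everywhere. It had 1871 and 2158 CPM for the central pair, 3034 and 3472 CPM for the edge pair, 2127 and 2209 CPM for the end pair, 1680.0 and 1761 CPM for the middle pair, and 1568, 1973, 2294 and 2054 CPM in the freezer, day 2, day 4 and day 6 libraries. Its edge libraries were the highest of the 12. Ends and middle differed by 0.29 on the log2 scale for this model, with an SE of 0.26 (edgeR adjusted p = 0.671).

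A second kind lay at bases 404920 to 407631. This model had 70.1 and 95.1 CPM for the central pair, 63.3 and 55.4 CPM for the edge pair, 83.9 and 131 CPM for the end pair and 143 and 181 CPM for the middle pair. In the statoblast series it had a single count, at day 6. Its overlapping neighbour at bases 407535 to 418656 had 2.51 to 2.85 CPM for the edge pair, 4.37 to 8.80 CPM in the elongated colonies and no statoblast count. Both were thus present at the edge and all but missing from statoblasts.

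The remaining models of note in the stretch resembled the edge-silent ones at a lower level. At bases 420290 to 421296 there were 0.722 and 4.50 CPM for the central pair, no count at the edge, 1.07 and 4.01 CPM for the end pair, 8.85 and 5.60 CPM for the middle pair and no statoblast count. At bases 397330 to 398343 there were 0.192 and 1.04 CPM for the central pair and no count at the edge or in statoblasts. Both lay under the central limit of 5 CPM.

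Outside the stretch the window held 56 models, 40 before and 16 after it. Of these, 43 stayed under 5 CPM in every mature library, and 13 reached it. All 13 were detected in both edge libraries, at 0.880 CPM or more, and in at least 1 statoblast library. Their ratio of edge to central means ran from 0.0941 to 1.37 with a median of 0.801, and that of end to middle means from 0.571 to 1.75 with a median of 1.05. Scaled by library totals alone, as CPM is, the median change from centre to edge over all 18085 models tested was -0.42 on the log2 scale. For the 13, the median ratio of central zone replicate 2 to replicate 1 was 1.04, so the gap between the central libraries was not general in the window. The lowest edge ratio and the highest central ratio, 6.07, belonged to 1 model at bases 4097 to 23728, which had 9.15 and 55.5 CPM for the central pair, 2.67 and 3.42 CPM for the edge pair and 7.07 to 13.8 CPM in the statoblast series.

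All 13 of these flanking models were tested against elongated colonies. In statoblasts 5 were lower, 1 was higher and 7 did not pass, against 47.5% lower and 29.1% higher of all 16009 models. The lower ones included the model at bases 730212 to 737412, at -4.61 on the log2 scale (SE 0.65, edgeR adjusted p = 0.000139). It had 0.535, 0.528, 0.184 and 0 CPM from the freezer to day 6, below all its mature libraries. With 6.5 statoblast counts in all, this model passed the filter on low counts through the colony libraries alone. Nothing is therefore read from its call. Lower too were the models at bases 78750 to 78971 and 78482 to 89738, which overlap each other, at -2.79 and -1.41 on that scale. Further lower ones lay at bases 915143 to 947465, at -1.70, and at bases 229963 to 259405, at -0.62, near the median of all models. As a plain ratio of mean CPM, statoblast to elongated, the 13 had a median of 1.10 and a range of 0.0714 to 2.24. The one model called higher in the statoblast series was g3100 (bases 771864 to 810836), with 70.3, 57.4, 89.3 and 60.5 CPM from the freezer to day 6. In elongated colonies it had 36.6 and 31.5 CPM for the end pair and 33.3 and 31.3 CPM for the middle pair. The statoblast and colony values did not overlap, and g3100 rose by 0.48 on the log2 scale, with an SE of 0.19 (edgeR adjusted p = 0.0376). This call was lost in 9 of 14 other settings. Across all models the median change was -0.57 on the log2 scale with TMM scaling and 0.01 with library totals alone, so that g3100 stood above the median of all models under both. The abundant model at bases 422161 to 432910 fell by 0.56 on the log2 scale (SE 0.17, edgeR adjusted p = 0.0124), at that median, and stood at 0.022 with library totals alone.

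After the stretch, the model at bases 660680 to 674130 stood at 2.32, 6.33, 17.7 and 20.6 CPM from the freezer to day 6, with 1 library each, and at 3.72 to 6.77 CPM in the mature colonies. Its neighbour at bases 712522 to 730307 stayed at 116 to 122 CPM over the stages, against 36.1 to 70.7 CPM in the mature libraries. Both were detected in both edge libraries. Neither passed the test of statoblasts against elongated colonies, at 0.55 and 0.24 on the log2 scale (edgeR adjusted p = 0.380 and 0.209).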

How the data were processed

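Per the labels' protocols, poly-A RNA was made into libraries with a directional kit and sequenced paired-end or single-end. Per the submitters' processing notes, the tools included featureCounts 1.5.1 and HISAT2 2.1.0. The sources used here give neither assembly nor annotation nor strand setting. The authors deposited expected counts per gene model, not normalized, some of them fractions. The 12 columns were matched to samples by title. Libraries of one group were no duplicates (chi-square per model 38.8 to 67.1). Whether replicates were different colonies is not in the labels, and p-values therefore reflect only how these libraries vary, which may be technical.

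Counts were rounded, which moved no library total by more than 0.00408%, and all models were tested with edgeR 4.0.16 (R 4.3.3), by its quasi-likelihood F test after filterByExpr and TMM scaling, with p-values adjusted by Benjamini-Hochberg and called under 0.05. The SE is the absolute log2 fold change divided by the square root of F. One fit had 4 group means over 8 mature libraries, another 4 statoblast against 4 elongated-colony libraries, with stages in the spread. DESeq2 1.42.0, pandas 2.3.3, numpy 2.4.6, scipy 1.17.1 and matplotlib 3.10.9 in Python 3.11.15 were also used. The fits were run on simulated data with the same median spread for every model, which says nothing about power for the edge-silent models. Alternatives were other scalings, no filter, DESeq2, other sample sets, a replicate block and each library left out. Members, limits and lists were chosen with earlier results of these data known. Models are described singly when edge-silent, called between ends and middle, or among the 5 highest in elongated colonies, and identifiers are printed for at most 2 rises and 2 falls per comparison. The 4-model block, the flanks and the other models described were chosen after their values were seen.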

Additional observations from a re-analysis of the deposited data

How the results depend on the processing

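The number of edge-silent models stayed between 12 and 16 over 10 other settings. Between ends and middle, 0 window models were lower in the reported test, 17 with no filter on low counts, 6 with the elongated-colony libraries alone, 8 without both libraries numbered 1 (added after the data were seen), and 0 to 12 when each library was left out in turn. Of all models, 62 were called, against 301 with DESeq2, 681 with no filter, 105 without both libraries numbered 1, and 35 to 1079 with each library left out. With the replicate number as a block 103 models were called, none of them in the window, and 5 log2 fold changes turned positive: 0.36 at base 444147, 0.46 at 456590, 0.35 at 469138, 0.26 at 480850 and 0.012 at 645695. End and middle share number 3 alone. Deviations of same-numbered libraries from their group means had r from -0.130 to 0.272. With 2 libraries per group such deviations mirror each other, so these r cannot decide whether the numbers pair libraries. The reported test took no pairing, and the block fit is given beside it. In statoblasts, 1 window model was higher, against 2 with library totals alone, 2 with no filter, 2 with all 8 mature libraries, 0 with DESeq2 size factors, and 0 to 1 with each library left out. With library totals alone the model at bases 422161 to 432910 went from -0.56 to 0.022. The causes were not tested. Statoblast depth limits detection to about 0.633 CPM in the smallest library.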
